A study of Sus scrofa with 6 samples.

Results

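The genes described here, read in preovulatory pig follicles, were chosen by the names of families that carry a signal from cell surface receptors to cyclic AMP (cAMP) and its targets. Some of them, such as PDE6D, GNB1L and CREBZF, matched by name alone. The families are the subunits of heterotrimeric G proteins (GNA, GNB and GNG genes), the regulators of G protein signalling (RGS), the cyclic nucleotide phosphodiesterases (PDE), the subunits of protein kinase A (PRKAC and PRKAR), the A-kinase anchoring proteins (AKAP), and the transcription factors CREB and CREM. A probe set of the Affymetrix porcine array was a member when its gene symbol began with 1 of these names or with ADCY, and when its signal was above 50 on 3 or more of the 6 arrays. This gave 70 probe sets of 49 genes among the 19196 probe sets that passed the same filter. Before the filter, 82 probe sets of 52 genes carried such a symbol. Members were chosen by name, without regard to breed, with the exception of GNA14, whose name came from a list of transcripts selected as different on these arrays.

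Follicles were dissected from 3 multiparous Chinese Erhualian sows (the study calls them Chinese Taihu) and 3 multiparous Large White sows. All 6 sows received 1000 IU of PMSG, which acts like FSH on follicle growth, and 500 IU of hCG 80 h later, which acts like LH and starts ovulation. They were killed 30 to 38 h after hCG, and 5 µg of total RNA from each sow was labelled for 1 array. Each breed came from its own farm, so breed and farm cannot be told apart, and the time of killing within the range is not given for single sows. The question was whether the follicles of the prolific Chinese breed differ in gene expression from those of the Large White breed.

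In the follicle, LH binds a receptor that couples to the stimulatory G protein Gs, whose alpha subunit, encoded by GNAS, turns on adenylyl cyclase. The cAMP that is made releases the catalytic subunits of protein kinase A from its regulatory subunits, and the kinase phosphorylates CREB and related factors. Inhibitory G proteins of the Gi family lower cAMP, those of the Gq family act through phospholipase C and calcium, RGS proteins switch alpha subunits off, and phosphodiesterases break the cyclic nucleotides down. AKAP proteins hold the kinase at particular places in the cell.

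Follicle samples hold granulosa, theca, vascular and blood cells in unknown shares, and a lower signal from fewer cells of a type cannot be told apart from less RNA per cell. The array of Chinese Erhualian sow 1 stood apart, with a correlation of 0.834 to 0.887 with the other arrays, against 0.967 between Chinese Erhualian sow 3 and Large White sow 3 and 0.957 between Chinese Erhualian sow 2 and Large White sow 1. All 14 tested markers of surface epithelium, oviduct and cilium were highest in Chinese Erhualian sow 1, where their signals summed to 66595, against 2165 and 2320 in the other two Chinese Erhualian sows and 2177 to 10322 in Large White sows. In that sow, the theca genes STAR and LHCGR had signals of 27.0 and 30.9, under the level of the filter, and the granulosa gene INHA had 446, against 6510 to 10684 in the other 5 sows. Not all genes of those lists were low there: ALDH1A1 of the theca list, at 6972, and INHBA and VNN2 of the granulosa list, at 899 and 869, were each highest in that sow. Of 16 leukocyte markers, 12 were highest in Large White sow 2, and the 16 summed to 5057 to 6636 in Chinese Erhualian sows, against 4021, 21999 and 5104 in Large White sows 1, 2 and 3. Among the theca markers, 9 were tested and summed to 7908, 45095 and 10666 in Chinese Erhualian sows 1, 2 and 3, against 39699, 15680 and 14101 in Large White sows. ALDH1A1 made up most of the sum in Chinese Erhualian sow 1, where the other 8 summed to 936, against 9031 to 44405 in the other 5 sows. Of 8 listed red blood cell markers, 4 were tested and all 4 were higher in Chinese Erhualian sows, by a median of 0.62 on the log2 scale. Of these 4, 2 (ALAS2 and AHSP) had an unadjusted limma p of at most 0.05 (adjusted p = 0.993), and their breed ranges overlapped. Of all tested genes 1.04% were higher at that threshold. No tested marker of the lists named here was at 0 in any sow, but a signal above 0 does not show that a cell type was present. The part of these markers in the values that follow was not tested.

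Across the members, the signals of the breeds overlapped for all but 6 probe sets. No member was higher in Chinese Erhualian sows at an unadjusted limma p of at most 0.05, the threshold of the study, and 1 (GNA14) was lower, which is 1.43% of the members. Of all tested probe sets 3.86% passed, 1.56% higher and 2.3% lower. Among the 69 members other than GNA14, 0 passed that threshold in either direction. After the Benjamini-Hochberg adjustment over all tested probe sets no member passed 0.05 with limma, the smallest adjusted p being 0.993, and 0.0208% of all tested probe sets did. The median log2 difference (Chinese Erhualian minus Large White) was -0.01 over the members and 0.00 over all tested probe sets. The estimate was above 0 for 34 members and below 0 for 36, and it lay within 0.5 of 0 for 63 of the 70.

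These estimates carry wide errors. The 95% limma interval of the difference lay inside a 2-fold change in both directions for 50 of 70 members (71.4%), against 65.9% of all tested probe sets, so that for the others a difference of 2-fold was within the error at this number of arrays. The 3 sows of each breed did not overlap for 6 members (8.57%), against 9.1% of all tested probe sets (3.98% higher and 5.12% lower). Of these 6, 3 were higher in Chinese Erhualian sows (GNAS and 1 probe set each of GNB1L and GNG3) and 3 were lower (GNA14, GNB2 and the other probe set of GNB1L). They lie in the groups of alpha subunits (5 member probe sets) and of beta and gamma subunits (13), where GNB1L, a protein resembling a beta subunit, was placed. That grouping was not tested. Without GNA14, which was named by its selection on these arrays, 5 of 69 members (7.25%) did not overlap.

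**Figure D1:**
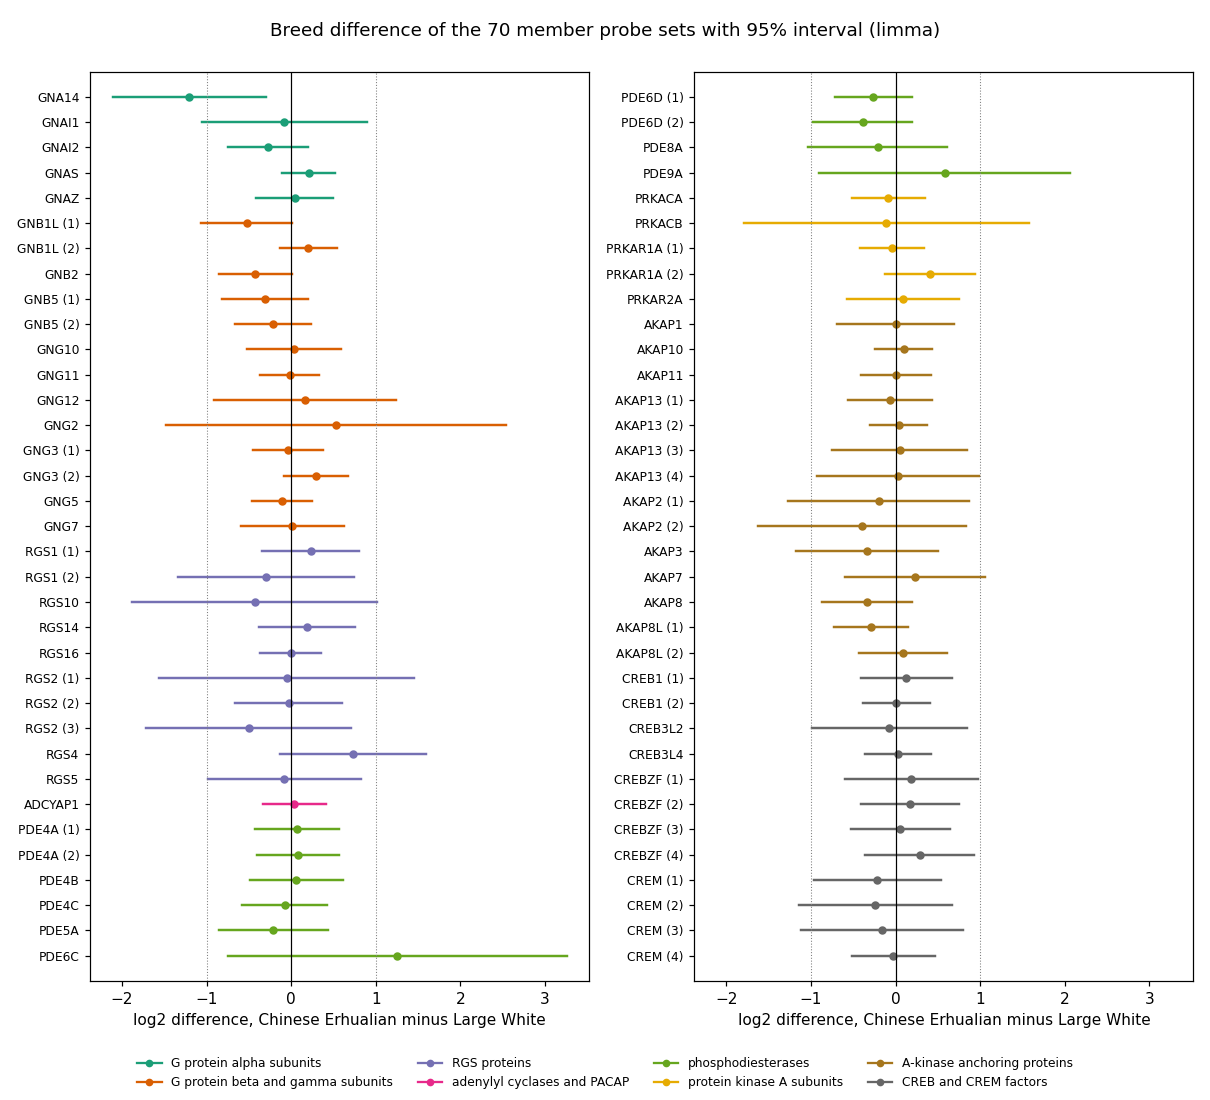
Log2 difference of normalized signal, Chinese Erhualian minus Large White (horizontal axis), for each of the 70 member probe sets, coloured by role; points are limma estimates over 3 sows a breed, lines the 95% interval, and dotted lines a 2-fold change. Numbers in brackets tell apart the probe sets of 1 gene. The interval of GNA14 alone lies wholly on 1 side of 0, and the widest intervals are those of PDE6C and GNG2.

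Alpha subunits were represented by 5 genes. GNA14 encodes an alpha subunit of the Gq family, which activates phospholipase C beta. Its signal was 86.9, 220.4 and 182 in Chinese Erhualian sows 1, 2 and 3, against 294, 428 and 339 in Large White sows 1, 2 and 3. Every Chinese Erhualian value was below every Large White value, and sow 1 had the lowest of all. The means were 163 ± 68.7 and 353 ± 68.0 (SD, n = 3 each), and the log2 difference was -1.20 (SE 0.38, 95% interval -2.11 to -0.30; limma p = 0.0169, adjusted p = 0.993; exact permutation p = 0.1, 2-sided, the smallest possible with 3 against 3). Since the gene was named because it had been selected on these arrays, this difference is a description and not an independent result. It was -0.80 without Chinese Erhualian sow 1, and -1.06 without Large White sow 2, where its unadjusted limma p no longer passed 0.05. A further probe set assigned to GNA14 by accession only, which was not a member, had signals of 168, 369 and 428 in Chinese Erhualian sows, against 368, 612 and 549.5 in Large White sows. There the breeds overlapped, with a log2 difference of -0.74 (SE 0.41). This further probe set also came from a list of transcripts selected as different on these arrays, so it is not an independent result.

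GNAS, the alpha subunit of Gs and so the first step from the LH receptor to cAMP, was read by a dim probe set. Its signal was 65.7, 65.3 and 60.0 in Chinese Erhualian sows, against 57.1, 51.8 and 56.7 in Large White sows. The breeds did not overlap, but the step was small, 63.7 ± 3.21 against 55.2 ± 2.98 (SD, n = 3 each), or 0.21 on the log2 scale (95% interval -0.11 to 0.52, limma, adjusted p = 0.993; exact permutation p = 0.1, 2-sided). GNAI2, an inhibitory alpha subunit, had signals of 2798, 3192 and 2715 in Chinese Erhualian sows, against 3149.7, 4480.0 and 3058 in Large White sows. Large White sow 2 was the highest, and the remaining sows of the breeds overlapped (log2 difference -0.28, 95% interval -0.75 to 0.20). GNAI1, also of the Gi family, had 757, 867 and 1582 in Chinese Erhualian sows, against 689, 1162 and 1535 in Large White sows, so that sow 3 was the highest of either breed and the breed difference was -0.08 on the log2 scale. GNAZ, another alpha subunit that inhibits adenylyl cyclase, stayed between 468 and 597 in Chinese Erhualian sows and between 488 and 561 in Large White sows. Probe sets shared by the Gq family genes GNA11 and GNA15 carried both symbols and were not counted as members.

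Beta and gamma subunits, which form the dimer that the alpha subunit leaves when it is active, had 13 probe sets of 10 genes. GNB2, a beta subunit, had signals of 1503, 1753 and 1532 in Chinese Erhualian sows, against 2243, 2367 and 1836 in Large White sows. No Chinese Erhualian sow reached the lowest Large White sow. The means were 1596 ± 137 and 2148 ± 278 (SD, n = 3 each), and the log2 difference was -0.42 (SE 0.18, 95% interval -0.85 to 0.01, limma, adjusted p = 0.993). GNB5, the beta subunit that pairs with a subclass of RGS proteins, was also highest in Large White sow 2 on both of its probe sets. The brighter of them read 307, 366 and 347 in Chinese Erhualian sows, against 394, 522 and 361 in Large White sows, and the breeds overlapped (log2 difference -0.31, 95% interval -0.82 to 0.19).

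GNB1L, whose WD repeats resemble those of a beta subunit and which matched by its name, gave opposite directions on its probe sets. The brighter read 576, 689 and 456 in Chinese Erhualian sows, against 926, 792 and 740.4 in Large White sows, with means of 574 ± 117 and 819 ± 95.8 (SD, n = 3 each) and a log2 difference of -0.53 (95% interval -1.07 to 0.02, limma, adjusted p = 0.993). The dimmer read 102, 92.7 and 94.5 in Chinese Erhualian sows, against 92.0, 79.6 and 80.1 in Large White sows (log2 difference 0.20, 95% interval -0.13 to 0.54). Both sets of values were without overlap, 1 downward and 1 upward, so the direction for the gene depends on the probe set. GNG3, a gamma subunit best known from the brain, also had a sign for each probe set. Its brighter probe set read 136, 161 and 157 in Chinese Erhualian sows, against 135, 112 and 123 in Large White sows, a log2 difference of 0.29 (95% interval -0.08 to 0.67), while the dimmer overlapped with -0.04.

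**Figure D2:**
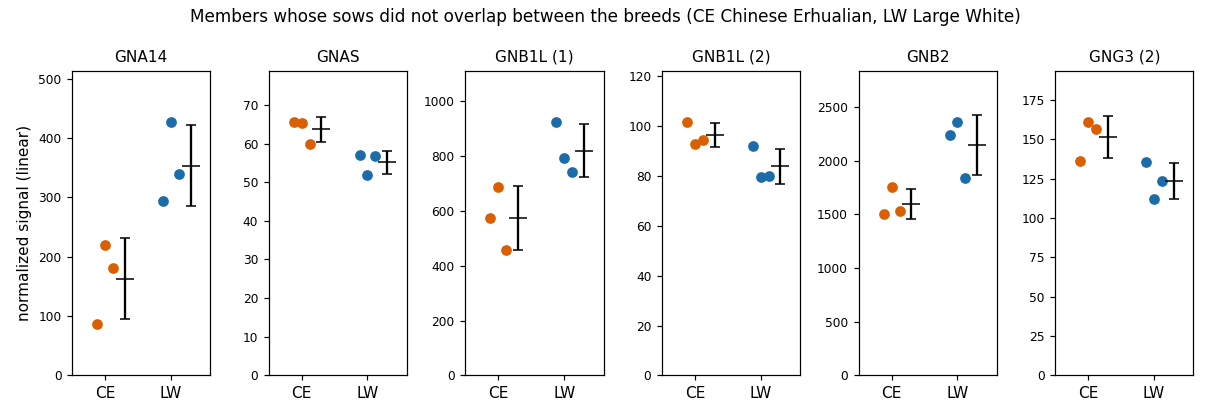
Normalized signal (vertical axes, linear and starting at 0, a scale of its own for each probe set) of the 6 member probe sets whose Chinese Erhualian (CE) and Large White (LW) sows did not overlap; each point is 1 sow, and the bar beside the points gives the mean and SD of 3 sows. GNA14, GNB2 and the brighter GNB1L probe set are lower in CE sows, and GNAS, the dimmer GNB1L probe set and the brighter GNG3 probe set are higher by a smaller step.

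Several gamma subunits were steady across all sows. GNG11 read 6691, 6059 and 7665 in Chinese Erhualian sows, against 6202, 6679 and 7819 in Large White sows, a difference of -0.02 on the log2 scale with a 95% interval of -0.37 to 0.33. GNG5 read 4577, 3678 and 3689 in Chinese Erhualian sows, against 4139, 4617 and 4067 in Large White sows (-0.11, 95% interval -0.47 to 0.25). For both genes the interval lies inside a 2-fold change. GNG2 and GNG12 varied between sows. GNG12 read 394, 317 and 149 in Chinese Erhualian sows, against 152, 298 and 295 in Large White sows, so that the breeds overlapped widely (log2 difference 0.16, 95% interval -0.91 to 1.24). GNG2 read 821, 5647 and 623 in Chinese Erhualian sows, against 1202, 1157 and 694 in Large White sows. Chinese Erhualian sow 2 alone was high, and the log2 difference of 0.53 (SE 0.83) became -0.47 without that sow. LHCGR, the LH receptor, was highest in the same sow, with 30.9, 568 and 66.4 in Chinese Erhualian sows, against 88.7, 145 and 123 in Large White sows. The chemokine receptor gene CXCR4 had 784, 5457 and 891 in Chinese Erhualian sows, against 2896, 1987 and 1295 in Large White sows. The sum of the theca markers was highest in Chinese Erhualian sow 2, at 45095, and next in Large White sow 1, at 39699, where GNG2 read 1202. The part of LHCGR, CXCR4 and the theca markers in the GNG2 signal was not tested.

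RGS proteins speed the return of alpha subunits to the inactive state, and 10 probe sets of 7 genes were members. The SD of their log2 signal over the 6 arrays was above 0.5 for 5 of 10 probe sets, against 16 of all 70 members (22.9%) and 23.8% of all tested probe sets. RGS2, which acts mainly on the Gq family, was read by 3 probe sets. The brightest gave 2185, 2745 and 7637 in Chinese Erhualian sows, against 3752, 4854 and 7133 in Large White sows. Sow 3 was the highest within each breed, and the Chinese Erhualian sows 1 and 2 lay below all others. The means were 4189 ± 2999 and 5246 ± 1724 (SD, n = 3 each), and the log2 difference of -0.50 (SE 0.50, 95% interval -1.71 to 0.71) became -1.05 without Chinese Erhualian sow 3 (limma, adjusted p = 0.993). The second probe set of RGS2 ordered the sows in the same way, with 134, 164 and 656 in Chinese Erhualian sows, against 199, 220.3 and 369 in Large White sows. The third, dim throughout, lay between 94.5 and 127 in Chinese Erhualian sows and between 81.3 and 151 in Large White sows.

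RGS4, which acts on Gi and Gq alpha subunits, had the largest positive log2 difference among the RGS genes. Its signal was 429, 918 and 664 in Chinese Erhualian sows, against 541, 345 and 309 in Large White sows. Large White sow 1 exceeded Chinese Erhualian sow 1, so the breeds overlapped, and the log2 difference of 0.73 (SE 0.36) had a 95% interval of -0.14 to 1.59 (limma, adjusted p = 0.993). It ranged from 0.47 without Chinese Erhualian sow 2 to 1.01 without Chinese Erhualian sow 1. RGS5, known from pericytes of small vessels, read 927, 2116 and 2297 in Chinese Erhualian sows, against 1483, 1983 and 1815 in Large White sows (-0.08, 95% interval -0.99 to 0.82). RGS16 was the steadiest of all members, with 254, 243 and 237 in Chinese Erhualian sows, against 256, 234 and 247 in Large White sows.

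RGS10, which is expressed in leukocytes, stood out in 1 Large White sow. Its signal was 205, 155 and 260.1 in Chinese Erhualian sows, against 126, 675 and 239 in Large White sows. Large White sow 2 was the highest and Large White sow 1 the lowest of the 6. The log2 difference was -0.43 (SE 0.60, 95% interval -1.89 to 1.02) and turned to 0.22 without Large White sow 2. In that sow TYROBP, a signalling adaptor of myeloid cells, read 5138, against 534, 906 and 1011 in Chinese Erhualian sows and 648 and 791 in the other two Large White sows. Whether leukocyte RNA took part in the RGS10 signal was not tested.

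Of the ADCY names, only ADCYAP1 was a member. It encodes PACAP, a peptide that acts through receptors coupled to Gs, and not a cyclase. Its probe set was dim, with 58.1, 70.9 and 54.2 in Chinese Erhualian sows, against 57.3, 59.3 and 61.1 in Large White sows (log2 difference 0.03, 95% interval -0.34 to 0.41). No adenylyl cyclase was among the members, and the step that makes cAMP was not analysed here.

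Phosphodiesterases had 10 probe sets of 8 genes above the filter, out of 15 probe sets that matched. PDE6C, the catalytic subunit of the cone photoreceptor enzyme, had the largest spread of any member. It read 2049, 351 and 201 in Chinese Erhualian sows, against 261, 166 and 248 in Large White sows. Chinese Erhualian sow 1 was far above the others, and sow 3 of the same breed lay within the Large White range. The log2 difference of 1.25 (SE 0.83, 95% interval -0.75 to 3.26) was 0.27 without that sow and 1.94 without Chinese Erhualian sow 3. PDE9A, a cGMP-specific enzyme, had the same pattern, with 912, 211 and 177 in Chinese Erhualian sows, against 244, 211 and 198 in Large White sows. Its log2 difference was 0.58 (SE 0.62) and -0.17 without Chinese Erhualian sow 1. EPCAM, an epithelial adhesion molecule, read 7761, 768 and 727 in Chinese Erhualian sows, against 140.4, 489 and 1653 in Large White sows, and its part in the PDE6C and PDE9A signals was not tested.

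PDE6D encodes a carrier of prenylated proteins that was named as the delta subunit of the same photoreceptor enzyme. Its brighter probe set read 539, 875 and 568 in Chinese Erhualian sows, against 859.7, 891 and 786 in Large White sows. Chinese Erhualian sows 1 and 3 were below all Large White sows and sow 2 was within their range (log2 difference -0.39, 95% interval -0.98 to 0.20). None of the cAMP-specific enzymes had an interval clear of 0. PDE4B read 230.3, 253 and 158 in Chinese Erhualian sows, against 178, 209 and 219 in Large White sows (0.06, 95% interval -0.49 to 0.61), and the members of PDE4A and PDE4C had log2 differences between -0.08 and 0.08. PDE8A varied more, with 72.4, 149.7 and 116 in Chinese Erhualian sows, against 178, 102 and 107 in Large White sows (-0.21, 95% interval -1.03 to 0.61). PDE3A, the enzyme that holds cAMP in check in the oocyte of several mammals, did not pass the filter on either of its probe sets. The brighter read 51.5, 58.1 and 44.3 in Chinese Erhualian sows, against 42.9, 42.7 and 44.0 in Large White sows.

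Protein kinase A had 5 probe sets of 4 genes, all above the filter. PRKACA, the alpha catalytic subunit, read 269, 327 and 252 in Chinese Erhualian sows, against 301, 315 and 279 in Large White sows, with a log2 difference of -0.09 and a 95% interval of -0.52 to 0.35. PRKACB, the beta catalytic subunit, varied between the sows of each breed instead. It read 539, 703 and 2413 in Chinese Erhualian sows, against 545, 1048 and 2007 in Large White sows. Sow 3 of each breed was high and sow 1 of each breed was low. The means were 1218 ± 1038 and 1200.3 ± 743 (SD, n = 3 each), and the breed difference was -0.11 on the log2 scale (SE 0.70, 95% interval -1.80 to 1.58).

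PRKAR1A, the type I regulatory subunit, was read by 2 bright probe sets. The first gave 2608, 3246 and 3319 in Chinese Erhualian sows, against 3014, 3222 and 3160.2 in Large White sows (log2 difference -0.04, 95% interval -0.42 to 0.33). The second gave 3506, 2405 and 3432 in Chinese Erhualian sows, against 2025, 2206 and 2787 in Large White sows. Chinese Erhualian sow 2 lay inside the Large White range on the second, so the breeds overlapped there (0.41, SE 0.22, 95% interval -0.13 to 0.94). PRKAR2A, a type II regulatory subunit, was highest in Chinese Erhualian sow 3, with 177, 175 and 318 in Chinese Erhualian sows, against 179, 221 and 206 in Large White sows.

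AKAP genes supplied 14 probe sets of 9 genes, and their log2 differences ran from -0.40 to 0.23. AKAP2, which tethers protein kinase A to the actin cytoskeleton, read 1146, 2489 and 3247 in Chinese Erhualian sows, against 1659.6, 2657 and 3186 in Large White sows on its brighter probe set. The order of the sows was the same within both breeds, sow 1 lowest and sow 3 highest, and the log2 difference was -0.20 (SE 0.44). AKAP13, which is also an activator of the GTPase RhoA, had another pattern. Its brightest probe set read 1201, 631 and 1225 in Chinese Erhualian sows, against 605, 1163 and 1252 in Large White sows. One sow of each breed, Chinese Erhualian sow 2 and Large White sow 1, had about the same low value, and the breed difference was 0.02 (95% interval -0.93 to 0.98). Not all of the 4 AKAP13 probe sets shared this. A second had the same low sows, with 840.2, 503 and 850.0 in Chinese Erhualian sows, against 477, 789 and 865 in Large White sows. A dimmer one read 59.3, 41.2 and 46.7 in Chinese Erhualian sows, against 41.6, 54.5 and 57.7 in Large White sows, while the fourth, with 113, 125 and 127 in Chinese Erhualian sows, against 111.3, 120.3 and 124 in Large White sows, was not low in Chinese Erhualian sow 2.

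Those same sows were the high ones for cholesterol synthesis. The 8 tested genes of that pathway summed to 5343, 24734 and 5324 in Chinese Erhualian sows, against 25832, 5948 and 6098 in Large White sows, and SQLE, an enzyme of it, read 287, 2680 and 291 in Chinese Erhualian sows, against 2157, 298 and 441 in Large White sows. The part of this difference between sows in the AKAP13 values was not tested.

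The nuclear anchoring proteins had intervals on both sides of 0. AKAP8 read 250.1, 171 and 268 in Chinese Erhualian sows, against 303, 288 and 267 in Large White sows (log2 difference -0.34, 95% interval -0.87 to 0.19). The brighter probe set of AKAP8L, its relative, read 349.5, 269 and 289.9 in Chinese Erhualian sows, against 387, 374 and 344 in Large White sows (-0.29, 95% interval -0.73 to 0.15), while the other had 0.09. In both genes 1 Chinese Erhualian sow reached the lowest Large White value. AKAP1, which sits on mitochondria, and AKAP10 and AKAP11 differed by at most 0.10 on the log2 scale.

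The transcription factors were represented by 12 probe sets of 5 genes, with log2 differences from -0.24 to 0.28 and the breeds overlapped on every one. CREM, a modulator that can activate or repress cAMP response elements, read 516, 1005 and 971 in Chinese Erhualian sows, against 769.8, 1012 and 1008 in Large White sows on its brightest probe set. Chinese Erhualian sow 1 was the lowest, and the log2 difference was -0.21 (95% interval -0.97 to 0.54). CREB3L2, a factor anchored in the endoplasmic reticulum, read 613, 619 and 1209 in Chinese Erhualian sows, against 569, 827 and 1136 in Large White sows, with sow 3 highest in each breed and a difference of -0.07. CREBZF, a leucine zipper protein that matched by its name, was highest in Chinese Erhualian sow 1 on all 4 of its probe sets, and its log2 differences were 0.06 to 0.28. CREB1 itself was dim on both probe sets, with signals between 53.0 and 105 in Chinese Erhualian sows and between 51.8 and 101 in Large White sows.

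**Figure D3:**
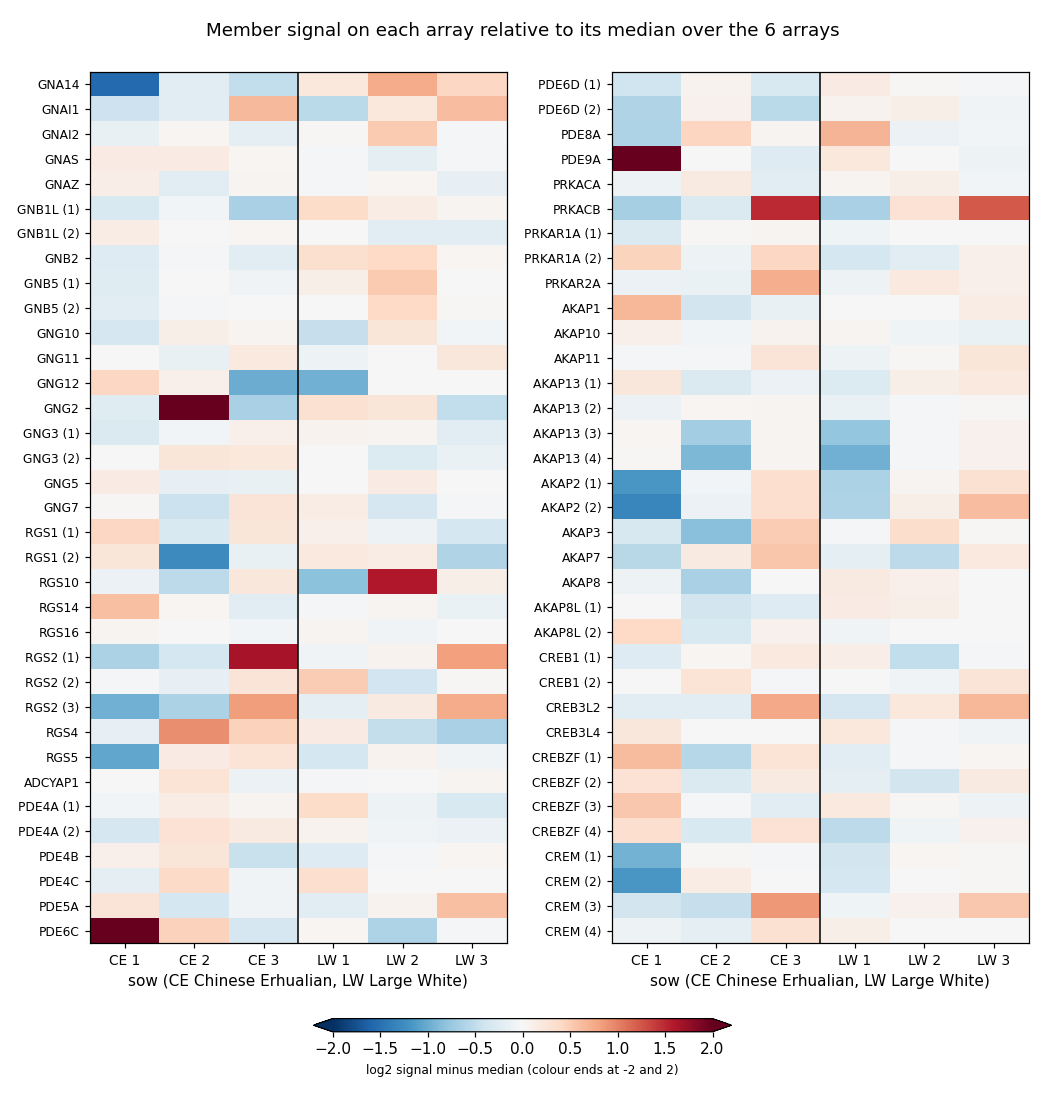
Log2 signal of each member probe set on each array minus its median over the 6 arrays (colour, blue below and red above, ending at -2 and 2), with Chinese Erhualian (CE) sows left of the black line and Large White (LW) sows right of it. Among the dark cells, GNG2 in CE 2, PDE6C and PDE9A in CE 1 and RGS10 in LW 2 stand in single sows, and PRKACB and RGS2 are above their medians in sow 3 of both breeds.

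For most members the variance within breeds was larger than that between them. Breed accounted for a median of 6.37% of the variance of log2 signal over the members, against 11.9% over all tested probe sets. It accounted for more than 50% in 7 of 70 members (10%), namely GNAS, GNB2, GNA14, both probe sets of GNB1L and the brighter ones of GNG3 and AKAP8L, against 10.4% of all tested probe sets. The SD of log2 signal over the 6 arrays had a median of 0.29 for members and 0.31 for all tested probe sets, and it ran from 0.05 for RGS16 to 1.32 for PDE6C. Chinese Erhualian sow 1 held the highest value of 19 members and the lowest of 20, shares of 27.1% and 28.6%, against 23.5% and 23.1% of all tested probe sets. Its signal lay more than 1 log2 unit from the median of the 6 arrays for 7 members (10%, against 11% of all tested probe sets), and each of the other 5 sows did so for 0 to 2 members.

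A pattern that crossed the breeds was the most frequent among the members. The highest pair of signals was that of Chinese Erhualian sow 3 and Large White sow 3 for 13 of 70 member probe sets (18.6%), against 11.2% of all tested probe sets. The 13 came from 10 genes, and probe sets of 1 gene are not independent. These were GNAI1, GNG11, PRKACB, AKAP7, AKAP11, CREB3L2, 2 probe sets each of RGS2, AKAP2 and AKAP13, and 1 of CREM. The lead of the pair was small for some, such as the brightest AKAP13 probe set, where Chinese Erhualian sow 3 had 1225 and Chinese Erhualian sow 1 had 1201. Among all tested probe sets the pair of Chinese Erhualian sow 2 and Large White sow 1 was on top most often, at 15.6%, but it was on top for only 5 members (7.14%), of which 4 were phosphodiesterase probe sets and 1 was GNG2. PTGS2, the prostaglandin synthase that LH induces before ovulation, was also highest in sow 3 of both breeds, with 14.8, 15.0 and 1166 in Chinese Erhualian sows, against 22.7, 150.3 and 603 in Large White sows. Most genes of its list were not highest there. Of the 19 tested genes that LH and cAMP induce, 2 were highest in Chinese Erhualian sow 3 and 2 in Large White sow 3. Another 6 were highest in Chinese Erhualian sow 2 and 6 in Large White sow 1. The part of PTGS2 in the members' pattern was not tested.

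**Figure D4:**
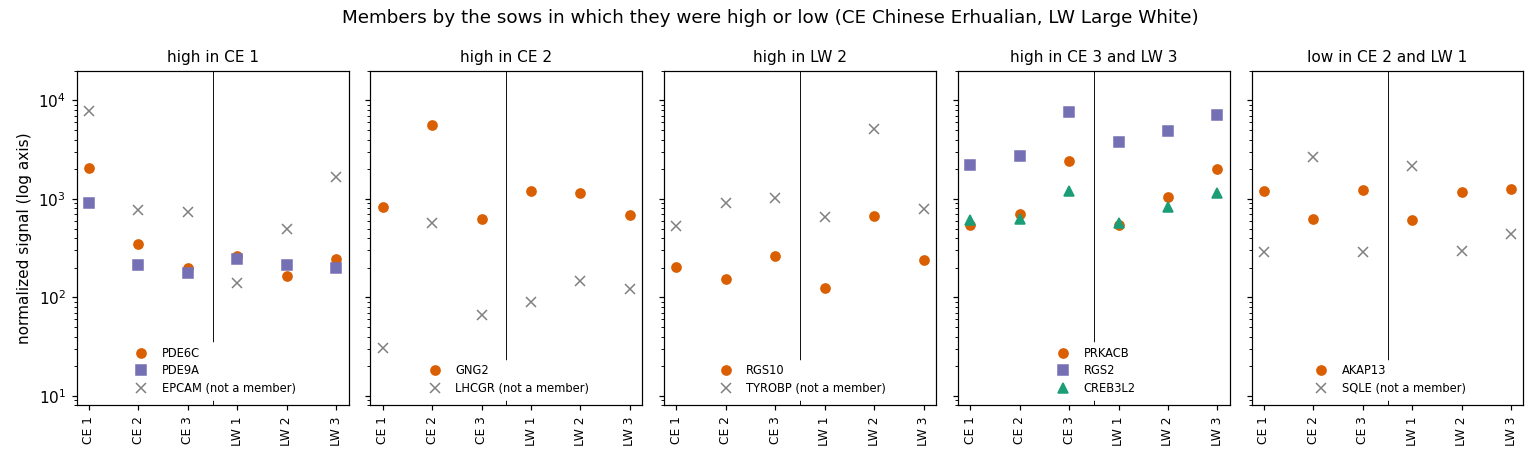
Normalized signal (vertical axis, log scale) in each sow (horizontal axis; CE Chinese Erhualian, LW Large White) for members that were high or low in particular sows, with a gene that is not a member as a cross; levels are comparable between sows but not between genes. PDE6C and PDE9A are high in CE 1, GNG2 in CE 2 and RGS10 in LW 2, PRKACB, RGS2 and CREB3L2 in sow 3 of both breeds, and the brightest AKAP13 probe set is low in CE 2 and LW 1.

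Different probe sets of 1 gene were compared as a check on these values. Of 14 genes with several member probe sets, 8 had estimates of the same sign and 6 had both signs. In 12 of the 14 the estimates lay within 0.5 of each other on the log2 scale. GNB1L and RGS1 were the exceptions, with ranges of 0.73 and 0.53. RGS1, a regulator known from B cells, had log2 differences of 0.23 and -0.30 on its probe sets, the second of them dim.

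The rest of the pathway was read from lists of genes by name, with the brightest probe set standing for each gene. Of all 6323 genes tested in this way, 1.04% were higher and 2.64% lower in Chinese Erhualian sows at an unadjusted limma p of at most 0.05. Receptors that couple to Gs had 8 of 25 listed genes tested, receptors that couple to Gi or Gq had 13 of 29, the phospholipase C, calcium and protein kinase C arm had 20 of 33, and the cGMP genes had 7 of 19, and 0 genes of these 4 lists passed in either direction. Their median log2 differences were 0.04, 0.04, -0.05 and 0.04, beside -0.04 over all genes tested. FSHR, the FSH receptor, did not pass the filter, and the prostaglandin E receptors PTGER2 and PTGER4 were not analysed here. PTGFR, the receptor for prostaglandin F2 alpha, ranged most among the Gq-coupled receptors, with 125, 4249 and 2186 in Chinese Erhualian sows, against 1439, 1096 and 1518 in Large White sows.

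Other regulators and effectors of cAMP had 18 of 37 listed genes tested, with a median log2 difference of -0.14, beside -0.04 over all genes. Estimates were below 0 for 12 of the 18. At an unadjusted limma p of at most 0.05, 0 were higher and 1 was lower. That gene was ATF4, a transcription factor related to CREB and best known from the stress response. It read 2631, 2258 and 3377 in Chinese Erhualian sows, against 3380.4, 4918 and 3891 in Large White sows. The highest Chinese Erhualian value lay just below the lowest Large White value. The means were 2755 ± 569.8 and 4063 ± 783 (SD, n = 3 each), a log2 difference of -0.56 (SE 0.22, limma, adjusted p = 0.993).

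Genes that LH and cAMP induce had 19 of 31 tested, of which 1 was higher and 0 were lower, with a median log2 difference of -0.19. The higher gene was PER1, a circadian clock gene whose promoter responds to CREB. It read 1850.0, 1141 and 1793 in Chinese Erhualian sows, against 822, 675 and 1069.9 in Large White sows. All Chinese Erhualian values were above all Large White values. The means were 1595 ± 394 and 856 ± 199.5 (SD, n = 3 each), a log2 difference of 0.89 (SE 0.28, limma, adjusted p = 0.993). In the same list STAR and CYP11A1, which start steroid synthesis from cholesterol, were highest in Chinese Erhualian sow 2 and Large White sow 1, and their breed ranges overlapped.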

How the data were processed

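Each array held total RNA of follicles from 1 sow. The authors made the deposited values, 1 normalized signal intensity per probe set and array on a linear scale, with MAS5 (version 2.3.1 in the deposited description), scaling and the invariant-set normalization of dChip. Arrays were therefore brought to 1 common level, and a change in total RNA would not show. Signals of different probe sets were ranked to tell bright from dim ones and to choose the brightest, and were added up in the sums of listed genes. As levels are not comparable between genes, RNA amounts were not compared between them.

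Gene symbols were taken from the annotation of the array, where 10099 probe sets have 1 symbol, 198 have several and 13826 have none, and GNA14 was named by an additional table of the study. Before the filter on signal, matching the probe sets with such a family name to RefSeq genes changed 0 symbols (77 IDs matched). The 6 probe sets that matched only through several symbols were left out, as were 188 controls. Signals were floored at 1 and taken to log2, and the 19196 probe sets over 50 on 3 or more of the 6 arrays were fitted with limma 3.58.1 (R 4.3.3; lmFit and eBayes with a variance trend, 2-sided, breed only), with p-values adjusted by Benjamini-Hochberg over all of them. Lists of pathway and marker genes (15 lists) were described by counts and medians with no set test. The procedure was tested on simulated data. Tables and figures were made in Python 3.11.15 (pandas 2.3.3, matplotlib 3.10.9, numpy 2.4.6).

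The members, lists and tests were chosen with earlier results of these data known. Named members are GNA14, the 2 brightest probe sets and the 2 with the smallest limma p in each of 8 roles, and the 8 with the largest SD; other members were named after their values were seen. Each replicate is a separate sow. Alternatives were other filters, normalizations, offsets and variance models, array weights, the sow number as a block, the t-test of the methods, fits without each sow and other choices of members; leaving out Chinese Erhualian sow 1 and Large White sow 2 together, and the members without ADCYAP1, PDE6D, CREBZF and GNB1L, were added after the data were seen. The number of arrays limits the precision. Present calls, RT-PCR and genotype data were not analysed here.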

Additional observations from a re-analysis of the deposited data

How the results depend on the processing

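No member reached an adjusted p below 0.05 under any of the alternatives, with limma or with the methods' t-test, and the median log2 difference of the members stayed between -0.09 and 0.03 with single arrays left out. The number of members lower at an unadjusted p of at most 0.05 was 3 without the variance trend and 3 with array weights in place of 1, and 0 to 4 with single arrays left out (0 without Large White sow 2, 4 without Chinese Erhualian sow 2). The number higher was 2 with array weights and 1 with the methods' t-test in place of 0, and 0 to 1 with single arrays left out. With the methods' t-test the higher member was GNAS, and the 1 lower was GNB2 in place of GNA14. Members without overlap numbered 3 after median scaling, 4 after quantile normalization, 4 of 59 with a signal above 100 required on 3 arrays and 9 of 82 with no filter, in place of 6 of 70. They numbered 6 to 19 with single arrays left out and 16 without Chinese Erhualian sow 1 and Large White sow 2, where fewer samples overlap less often by construction. The share of all tested probe sets without overlap was not computed under these alternatives, so these counts have no background beside them. The labels number the sows of both breeds 1 to 3 and do not say that the numbers pair them. Deviations of sows with the same number had correlations of -0.17, -0.14 and 0.27 for numbers 1, 2 and 3. Such values cannot decide whether the numbers mark a pair. With the replicate block 0 members were higher and 1 was lower, 0 after adjustment, and over all probe sets 257 were higher and 462 lower, with 0 adjusted calls in place of 4. Over all probe sets the counts of 300 higher and 441 lower became 528 and 775 with array weights (11 adjusted calls), 482 and 743 without Chinese Erhualian sow 2, 468 and 450 without Large White sow 3, and 144 and 229 without Large White sow 2. For the 30 named probe sets, 460 of 478 alternative values stayed on the same side of the threshold with the same direction where called, 16 newly passed an unadjusted p of 0.05 and 2, both of GNA14, no longer did (the methods' t-test, and the fit without Large White sow 2). The smallest adjusted p among them was 0.649. Of these probe sets only GNA14 was called in the main fit. Where a probe set was not called, the estimate changed sign in 47 alternative values, in 15 of the 30 probe sets. The causes of these changes were not tested. With 3 arrays a breed the smallest exact permutation p is 0.1.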

Other observations

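Probe sets that carried the symbols of 2 genes, and so were not members, showed no separation of the breeds. The 3 brighter probe sets shared by GNA11 and GNA15, alpha subunits of the Gq family, had log2 differences (Chinese Erhualian minus Large White) of -0.02, -0.03 and 0.00. The brightest of them read 1505, 1263 and 1066 in Chinese Erhualian sows, against 1435, 1331 and 1064 in Large White sows. A probe set shared by AKAP9, an anchoring protein of the Golgi and centrosome, and EZH2, a histone methyltransferase, read 647, 244 and 397 in Chinese Erhualian sows, against 198, 260.2 and 423 in Large White sows, and was highest in Chinese Erhualian sow 1.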
